A study of Mus musculus with 4 samples.

Results

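Pmaip1 and 8 other genes of the BCL2 family were followed in single-cell RNA sequencing of sorted mouse marrow: Bcl2, Bcl2l1, Mcl1, Bax, Bak1, Bbc3, Bcl2l11 and Bid. These 9 genes were chosen by symbol from the 32227 genes of the deposited matrices, and all 9 had UMIs (unique molecular identifiers, 1 per captured transcript). The choice rested on summed UMIs of surgery against sham replicates within each batch, over all cells and over marker-gated cell types, so that comparison is described here with no p-value for a member. All mice were wild type (WT) and carried E0771 breast cancer cells, injected 3 days before the operation. In the surgery group the femoral artery, the main artery of the hind limb, was ligated, and the controls had sham surgery. Marrow was taken 9 days later and sorted for progenitors that lacked lineage markers and carried cKit, whether Sca1 was present or not. The groups were sham (4 replicates) and surgery (4 replicates), each replicate marked by a hashtag, an oligonucleotide label that its cells carried into a shared capture. The 2 captures are called batch 1 and batch 2, and each held 2 sham and 2 surgery replicates by hashtag name. The treatment labels of the libraries name one capture as ligated and the other as sham, against those hashtag names, so every value by group rests on the hashtag names. Whether 1 mouse or a pool made up a replicate is not stated in the labels, and neither is age, so all errors measure the spread between these replicates.

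The BCL2 family decides whether the outer mitochondrial membrane is opened and a cell enters apoptosis. BCL2, BCL-XL (the product of Bcl2l1) and MCL1 hold the membrane closed, BAX and BAK (Bak1) form the pores, and the BH3-only proteins tip the balance by binding the guardians or activating the pore formers. NOXA, the product of Pmaip1, is a BH3-only protein that binds MCL1 in particular and promotes its breakdown. PUMA (Bbc3) is a main effector of p53, BIM (Bcl2l11) acts when growth factors are withdrawn and shapes lymphocyte numbers, and BID is cut to its active form by caspase-8. In marrow, stem cells depend on MCL1, and BCL-XL supports late red cell precursors and platelets.

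A total of 26942 cells carried exactly 1 hashtag with at least 200 counts, 14678 in batch 1 and 12264 in batch 2. The replicates held between 1883 and 5889 cells, with median depths of 5860.5 to 7190.5 UMIs per cell in batch 1 and 10291 to 12406 in batch 2. The best hashtag lay just under that minimum, with at least 100 counts, on 274 and 161 barcodes of the 2 batches, and just over it, below 2 times the minimum, on 434 and 271. Between the captures 5 barcode sequences recurred, 4 of them among the cells used. A cell was placed in a class where at least 3 of that class's 8 marker genes had a UMI and at least 2 more than for any other class, and no member is a marker. The gates took 18248 cells, of which 4620 stood at a lead of exactly 2 markers, while 5011 cells at a lead of 1 stayed outside. The 8 classes with at least 10 cells in every replicate were 6822 neutrophil-granulocyte progenitors, 3342 B cells, 3116 monocyte progenitors, 2308 erythroid progenitors, 824 basophil-mast progenitors, 748 HSC (haematopoietic stem cells) and early multipotent progenitors, 430 lymphoid-primed progenitors and 362 megakaryocyte progenitors. Each gate had between 3 and 6 of its own markers, on which its cells were chosen, among its top 10 genes. The neutrophil-granulocyte gate also had Camp and Ngp of the mature neutrophil list and Vcam1 of the macrophage list there, and the lymphoid-primed gate Cox6a2 of the plasmacytoid list. The neutrophil-granulocyte gate was led by S100a8, Camp and S100a9 and the erythroid gate by Hbb-bs, Hba-a1 and Hbb-bt, none of them own markers. No cell passed the endothelial and stromal or the epithelial gate, and 7 passed that for macrophages. The sort was for cells without lineage markers, and by their markers 12.4% of the cells used were B cells. That gate was led by Vpreb3, Ebf1, Igll1, Vpreb1 and Lef1, with Pax5 and Igkc also among its top 10 genes. Vpreb1 and Igll1 encode the surrogate light chain of B cell precursors. B cells therefore names this gate, in which precursor genes led, and stages within it were not separated. Median depth ran from 2826.5 UMIs in B cells to 14244.5 in neutrophil-granulocyte progenitors, so levels are given as CPM, the summed UMIs of a gene scaled to a total of 1000000 in that replicate and class. CPM carry no correction for gene length and are compared for 1 gene at a time. In summed cells, fewer expressing cells and less RNA per cell cannot be told apart.

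Pmaip1 lay higher in every surgery replicate than in any sham replicate, in both batches. Over all cells it had 12.8 and 12.9 CPM in the sham replicates of batch 1 and 12.2 and 13.1 in those of batch 2. The surgery replicates had 17.4 and 17.8 CPM in batch 1 and 16.9 and 17.8 in batch 2. No surgery value overlapped a sham value, and the means were 12.7 ± 0.398 and 17.5 ± 0.440 CPM (SD, n = 4 each). The fitted difference, surgery over sham with batch as a term, was 0.47 ± 0.05 on the log2 scale (SE), and the log2 ratios of mean CPM within batch 1 and batch 2 were 0.45 and 0.46. Pmaip1 was the only member past an adjusted p of 0.05 in that fit, in which 7 of 16858 genes passed (0.0415%, with 0.0356% higher and 0.00593% lower); as the gene was chosen on this contrast, nothing is read from that count. Among genes with at least 10 UMIs, 0.785% had all surgery replicates above all sham replicates. Fitted without any 1 of the 8 replicates the difference was 0.45 to 0.48 and the gene was no longer past the threshold.

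The same gene was read within the gates. In monocyte progenitors, the class with the highest Pmaip1, the sham replicates had 29.4 and 26.2 CPM in batch 1 and 26.9 and 28.3 in batch 2. The surgery replicates had 42.2 and 39.7 CPM in batch 1 and 37.6 and 40.1 in batch 2. Again no value overlapped between the groups, as in 1.1% of genes with at least 10 UMIs in this class, and the fitted log2 difference was 0.55 ± 0.08 (SE), with 0.56 and 0.49 within the batches. It passed the threshold, as 12 of 11816 genes did in that class (0.102%), but not when batch 1 sham replicate 2, batch 2 sham replicate 1 or batch 2 surgery replicate 2 was left out (0.52, 0.54 and 0.54). The gene was chosen on this contrast, so nothing is read from that count. Within the gate, the summed level of the 8 monocyte markers was 3317 to 3541 CPM in sham and 3309 to 3772 in surgery replicates. The 8 neutrophil-granulocyte markers summed to 9056 to 10450 CPM in sham and 9589 to 11212 in surgery, and 1 of them had all surgery replicates above all sham ones. Whether that shift has a part in the Pmaip1 difference was not tested. Macrophage markers summed to 15.1 to 18.6 CPM in sham and 15.7 to 18.6 in surgery replicates, 1 of the 8 having no UMI, and epithelial markers to 7.93 to 16.0 and 5.52 to 14.4.

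Neutrophil-granulocyte progenitors had less Pmaip1 and a difference of like size with more spread. Their sham replicates had 10.6 and 9.09 CPM in batch 1 and 6.38 and 7.46 in batch 2, and their surgery replicates 10.7 and 11.5 in batch 1 and 12.997 and 12.3 in batch 2. The groups did not overlap (as in 1.05% of genes), but the highest sham and the lowest surgery replicate, both of batch 1, nearly met. The log2 difference was 0.55 ± 0.14 (SE) in the fit, 0.17 within batch 1 and 0.87 within batch 2, and the gene was not called there (6 of 13247 genes were, 0.0453%). Without batch 2 sham replicate 1 the difference was 0.43. Within this gate the 8 basophil-mast markers summed to 217 to 253 CPM in sham and 254 to 271 in surgery replicates, without overlap, and 1 of the 8 had all surgery replicates above all sham ones. The 8 eosinophil markers summed to 52.5 to 142 CPM in sham and 111 to 217 in surgery replicates, and the gate's own 8 markers to 31222 to 32951 and 30532 to 34942. The part of these shifts in the Pmaip1 difference was not tested. Basophil-mast progenitors had 12.1 ± 5.03 CPM in sham and 15.1 ± 3.83 in surgery replicates, and B cells 5.20 ± 0.861 and 5.83 ± 2.83, both with overlap. In the other 4 classes Pmaip1 had between 8 and 16 UMIs in all, and it was too low for the surgery fit in every class but the monocyte and neutrophil-granulocyte progenitors. The monocyte gate took 11.7% ± 2.42 of sham and 11.0% ± 1.92 of surgery cells, and the neutrophil-granulocyte gate 24.1% ± 2.25 and 28.1% ± 6.25 (SD, n = 4 each).

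**Figure D1:**
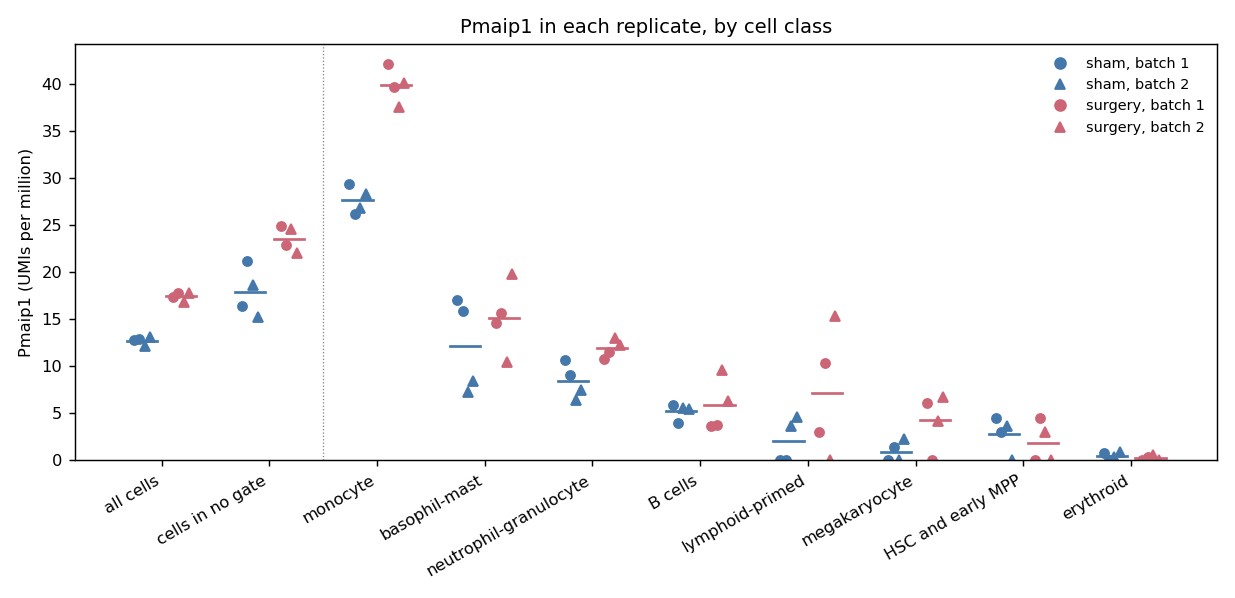
Pmaip1 level in CPM (y axis, linear) for each replicate, in all cells, in cells that passed no gate and in the 8 classes. Circles are batch 1 and triangles batch 2, blue is sham and red is surgery, and bars are group means; the 4 surgery replicates lie above the 4 sham replicates in all cells, cells in no gate, monocyte and neutrophil-granulocyte progenitors, and the groups overlap in the other 6 classes.

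The mean share of cells with a Pmaip1 UMI was higher in surgery replicates in most classes, with overlap in each. It was lower in HSC and early multipotent (1.64% in sham, 1.17% in surgery) and erythroid progenitors (0.733% and 0.308%), on 11 and 9 cells in all. In monocyte progenitors it was 27.1% ± 3.70 of cells in sham and 33.2% ± 4.73 in surgery replicates (SD, n = 4 each), with ranges of 23.2% to 30.6% and 28.7% to 39.5% that overlapped. With each cell thinned to 5000 UMIs, which left out 269 sham and 207 surgery cells, the shares were 13.3% ± 1.15 and 15.6% ± 1.71, again with overlap. Thinning turned the direction in B cells (2.07% in sham, 1.31% in surgery) and in erythroid progenitors (0% and 0.143%). Erythroid progenitors, at a median depth of 13351 UMIs against 13669 in monocyte progenitors, had a Pmaip1 UMI in 0.390% of cells, against 29.8% of all monocyte progenitors.

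None of the other 8 members separated sham from surgery over all cells. The largest fitted difference among them was that of Bbc3, -0.22 ± 0.12 on the log2 scale (SE), with 9.99, 7.65, 8.96 and 8.35 CPM in the sham and 7.05, 9.33, 6.27 and 7.02 in the surgery replicates. Both ranges overlapped, and the difference came with log2 ratios of -0.11 in batch 1 and -0.38 in batch 2. Bcl2 went in opposite directions in the batches, with a log2 ratio of 0.12 in batch 1 and -0.32 in batch 2 and a fitted difference of -0.09 ± 0.10. Bcl2l11 did likewise (0.18 and -0.27). Mcl1, the main partner of NOXA, had 73.9 ± 4.49 CPM in sham and 70.8 ± 0.991 in surgery replicates, a log2 difference of -0.04 ± 0.04. The pore formers were as close, with -0.03 ± 0.04 for Bax and 0.05 ± 0.03 for Bak1. Bcl2l1 (-0.04 ± 0.07) and Bid (0.02 ± 0.03) completed the set. Across the 9 members the median log2 difference was -0.03, and across all genes tested it was -0.00208.

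Within the classes, no member other than Pmaip1 passed the threshold. The share of all genes past it, in either direction, was 0.0402% in HSC and early multipotent progenitors (0.0268% higher, 0.0134% lower), 0.282% in lymphoid-primed progenitors (0.232% and 0.0497%), 0.0152% in megakaryocyte progenitors (all higher) and 0.0134% in basophil-mast progenitors (all higher). It was 0 in erythroid progenitors and B cells, where 385 of 10230 and 454 of 9950 genes had an unadjusted p under 0.05 in edgeR. In monocyte progenitors Mcl1 had 97.2 and 83.6 CPM in the batch 1 sham replicates and 79.5 and 77.7 in those of batch 2, against 73.3 and 71.2 and then 70.1 and 84.3 after surgery. The highest surgery value, in batch 2, lay inside the sham range, and the log2 difference was -0.13 ± 0.08 (SE). Bcl2 in the same cells differed by -0.11 ± 0.07 and Bak1 by 0.09 ± 0.06. In lymphoid-primed progenitors, where Bcl2 was highest, the difference was -0.24 ± 0.12, with -0.25 in batch 1 and -0.27 in batch 2 and overlapping groups. In the small classes the fitted values were wider: Bak1 differed by -0.45 ± 0.22 in HSC and early multipotent progenitors, and Bid by 0.53 ± 0.36 in megakaryocyte and 0.46 ± 0.28 in lymphoid-primed progenitors. The 4 members Pmaip1, Bbc3, Bcl2l1 and Bcl2l11 were each too low for the fit in at least 1 class, so 5 to 9 members were tested per class.

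**Figure D2:**
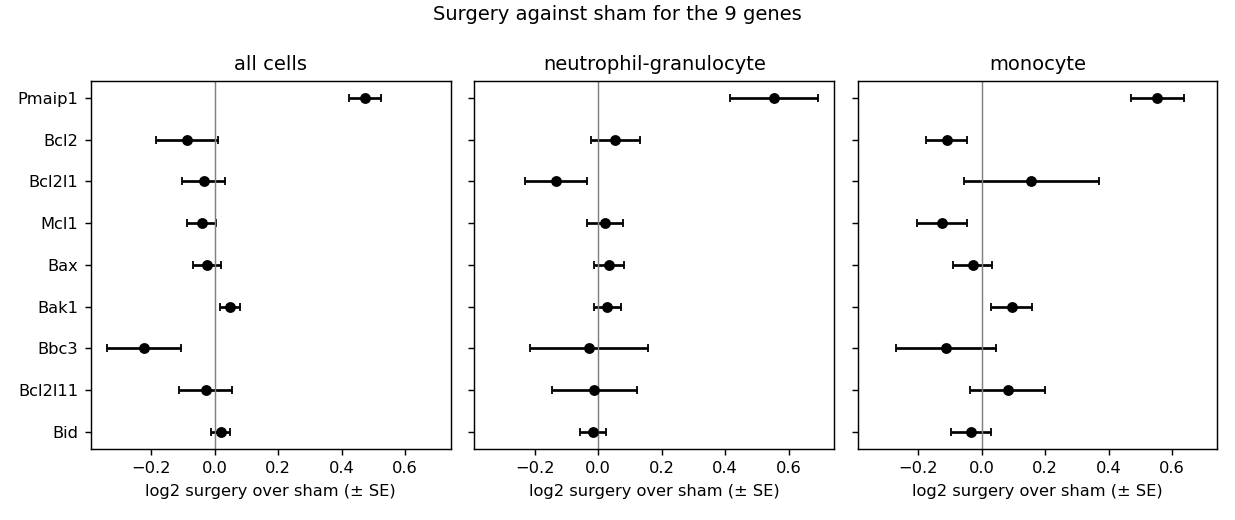
Fitted log2 difference of surgery over sham (x axis, points) with its standard error (bars) for the 9 genes (rows), in all cells, neutrophil-granulocyte progenitors and monocyte progenitors, from 4 surgery and 4 sham replicates. Pmaip1 stands at 0.47, 0.55 and 0.55, and the other 8 genes lie between -0.22 and 0.16.

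The classes themselves were compared next, a contrast that the choice of genes did not use. Each class was set against the mean of the other 7 on the log2 scale in edgeR's quasi-likelihood test, with the replicate as a block and Benjamini-Hochberg adjustment over all 11201 genes tested. Of the 72 pairs of member and class, 33 were higher and 26 lower at an adjusted p under 0.05. Of these 59, 56 had the same sign in both batches and 44 in all 8 replicates on the log2(CPM + 1) scale; the 3 exceptions were Bak1 in HSC and early multipotent progenitors, erythroid progenitors and B cells. Of all genes, 50.3% passed for HSC and early multipotent progenitors, 47.3% for lymphoid-primed, 77.4% for neutrophil-granulocyte, 72.4% for monocyte, 83.8% for erythroid, 43.5% for megakaryocyte and 60.1% for basophil-mast progenitors and 74.3% for B cells, so a passed test is common here. With every cell thinned to 2000 UMIs, the 8 pairs of Bbc3 fell under the low-count filter, and of the 64 pairs tested 21 were higher and 18 lower, 13 calls being lost.

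**Figure D3:**
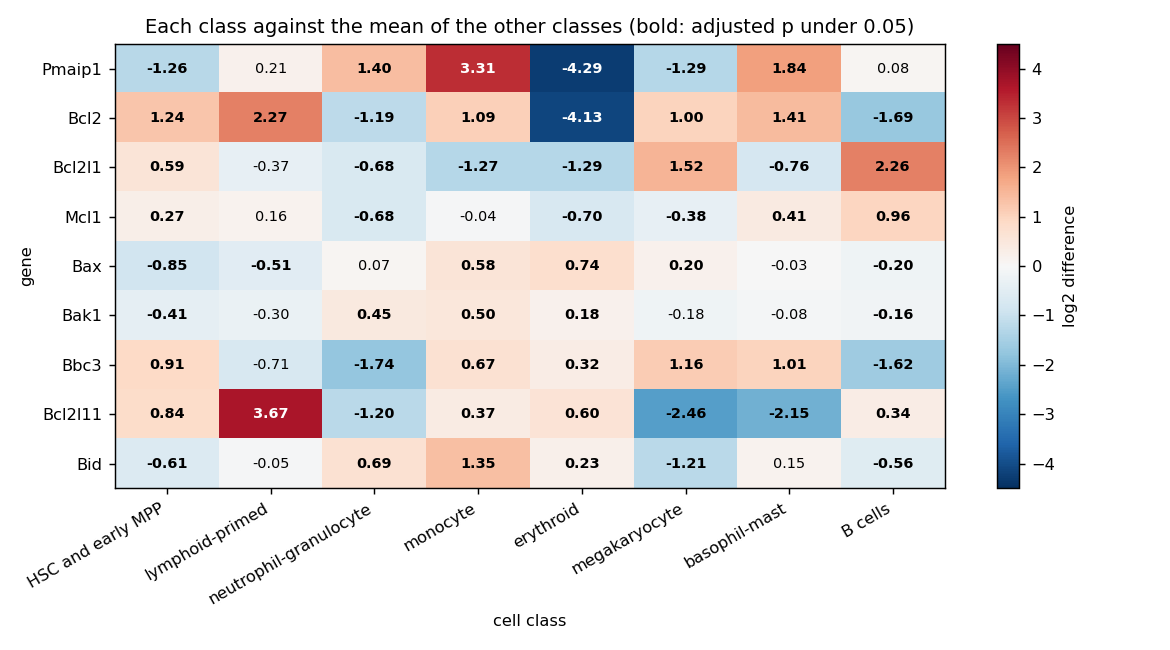
Log2 difference of each class (columns) from the mean of the other 7 classes for the 9 genes (rows), fitted over 8 replicates; red is higher, blue is lower, and bold numbers passed an adjusted p of 0.05. The most positive values are Bcl2l11 in lymphoid-primed progenitors (3.67) and Pmaip1 in monocyte progenitors (3.31), and the most negative are Pmaip1 (-4.29) and Bcl2 (-4.13) in erythroid progenitors.

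Pmaip1 was highest in monocyte progenitors. Its level there ran from 26.2 to 42.2 CPM over the 8 replicates with a mean of 33.8 ± 6.69 (SD), 9.95-fold above the other classes on the log scale (3.31 ± 0.11, SE, adjusted p = 6.10e-44). It was also higher in basophil-mast (13.6 ± 4.44 CPM, 1.84 ± 0.25, adjusted p = 5.06e-10) and neutrophil-granulocyte progenitors (10.1 ± 2.32 CPM, 1.40 ± 0.13, adjusted p = 5.53e-16). Of its 4178 UMIs, monocyte progenitors held 1421 (34.0%), neutrophil-granulocyte progenitors 977 (23.4%) and cells in no gate 1558 (37.3%). Erythroid progenitors had 9 UMIs of Pmaip1 in 2308 cells, 0.357 ± 0.352 CPM, and lay far below the rest (-4.29 ± 0.37, adjusted p = 1.64e-18). HSC and early multipotent progenitors (-1.26 ± 0.45) and megakaryocyte progenitors (-1.29 ± 0.51) were lower on 11 and 8 UMIs. The first call was lost without batch 2 sham replicate 2 or batch 2 surgery replicate 2 (-1.07 and -0.92), in sham replicates alone (-0.65), in thinned cells (-0.56) and with a lead of 3 markers in the gate (-1.23). The second was lost without TMM scaling (-1.19), without the top 5% of cells by UMIs (-1.18), in thinned cells (-2.20) and without any of batch 1 sham replicates 1 and 2, batch 1 surgery replicate 2 and batch 2 sham replicates 1 and 2 (-1.28 to -0.96).

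In the order of Pmaip1 levels, monocyte progenitors stood above basophil-mast progenitors by 1.29 on the log2(CPM + 1) scale in 8 of 8 replicates (two-sided exact sign-flip permutation p = 0.00781, the smallest possible, adjusted p = 0.0308 over 63 pairs of neighbours for the 9 genes). Neutrophil-granulocyte progenitors stood above B cells by 0.80 in 8 of 8 replicates, with the same exact p and adjusted p. Basophil-mast and neutrophil-granulocyte progenitors differed by 0.36 in 7 of 8 replicates (exact permutation p = 0.0312, adjusted p = 0.0938), which did not pass. From B cells down through lymphoid-primed, HSC, megakaryocyte and erythroid progenitors, no neighbours differed beyond their spread. Over the 9 genes 16 of 63 neighbour pairs passed; without any 1 replicate the smallest exact p cannot pass the adjustment, and none did.

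Among 7201 genes with a mean of at least 20 CPM, the pattern over the 8 classes most like that of Pmaip1 was that of Aph1a (Pearson r = 0.96), a subunit of gamma-secretase. Kctd20 (0.95), Preb (0.94), Cstb (0.94), the cysteine protease inhibitor cystatin B, and Gga1 (0.93) followed. The least like were Plaat3 (-0.98), Isg20l2 (-0.97) and Stx17 (-0.95). These r describe 8 class means from the same cells and carry no test. Of the members, Bid (0.68) and Bak1 (0.62) were nearest to Pmaip1 and Bcl2l1 (-0.30) farthest.

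The 3 guardians had 3 different orders. Bcl2 was highest in lymphoid-primed progenitors, from 352 to 684 CPM over the replicates with a median of 490.7, 4.83-fold above the other classes (2.27 ± 0.07, SE, adjusted p = 2.62e-46). It exceeded the next class, HSC and early multipotent progenitors with 278 ± 22.4 CPM (SD, n = 8), by 0.86 in 8 of 8 replicates (exact permutation p = 0.00781, adjusted p = 0.0308). HSC, basophil-mast, megakaryocyte and monocyte progenitors followed within 216 to 278 CPM on average, and no neighbours among them passed. From monocyte to neutrophil-granulocyte progenitors Bcl2 dropped by 2.04 in 8 of 8 replicates, from 216 ± 30.3 to 51.8 ± 8.64 CPM. Erythroid progenitors had 9.55 ± 3.33 CPM, a difference of -4.13 ± 0.09 from the other classes (adjusted p = 1.37e-59). Levels in lymphoid-primed progenitors were 603 CPM on average in batch 1 and 424 in batch 2, and the order of the classes at its top and foot was the same in both.

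Bcl2l1 was highest in the B cell gate, led by precursor genes, and next in megakaryocyte progenitors. B cells had 36.7 to 81.7 CPM with a median of 65.6, 4.80-fold above the other classes (2.26 ± 0.09, SE, adjusted p = 8.15e-40), and megakaryocyte progenitors 37.9 ± 13.7 CPM (1.52 ± 0.16, adjusted p = 3.49e-13). The lowest B cell value was that of batch 2 surgery replicate 1. B cells stood above megakaryocyte progenitors by 0.77 in 8 of 8 replicates (exact permutation p = 0.00781, adjusted p = 0.0308), the only neighbours of this gene to pass. Monocyte (6.48 ± 1.51 CPM) and erythroid progenitors (6.72 ± 2.27 CPM) were lowest, at -1.27 ± 0.12 and -1.29 ± 0.13 from the rest. HSC and early multipotent progenitors were 0.59 ± 0.17 higher, a call that ended in sham replicates alone (0.43) and in thinned cells (0.31).

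Mcl1 was the most even of the guardians. It ranged from 51.4 ± 2.63 CPM in neutrophil-granulocyte progenitors to 168 ± 13.5 in B cells (SD, n = 8), and B cells exceeded the other classes 1.95-fold (0.96 ± 0.05, SE, adjusted p = 5.65e-32). B cells also passed against HSC and early multipotent progenitors, the next class with 115 ± 19.2 CPM, by 0.56 in 8 of 8 replicates (exact permutation p = 0.00781, adjusted p = 0.0308). Among HSC and early multipotent, basophil-mast (106 ± 15.1 CPM) and lymphoid-primed progenitors (104 ± 18.6 CPM) no neighbours passed. Lymphoid-primed progenitors exceeded monocyte progenitors (79.6 ± 8.87 CPM) by 0.38, and megakaryocyte exceeded erythroid progenitors by 0.46, each in 8 of 8 replicates. Neighbour differences carry no TMM factors. Leaving these factors out moved the median of all genes by 0.12 in lymphoid-primed and -0.11 in monocyte progenitors, and by 0.10 in megakaryocyte and -0.13 in erythroid progenitors. In the class fit with TMM, Mcl1 passed for neither lymphoid-primed (0.16 ± 0.09, SE) nor monocyte progenitors. Pmaip1 peaked in monocyte progenitors and Mcl1 in B cells, and over the 8 classes r was 0.11 (no test). Basophil-mast progenitors, next after monocyte progenitors for Pmaip1, were also higher for Mcl1 (0.41 ± 0.07, SE, past the threshold). Monocyte progenitors differed by -0.04 ± 0.05 in Mcl1 and the sign of that value turned without the filter on low counts (0.08).

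**Figure D4:**
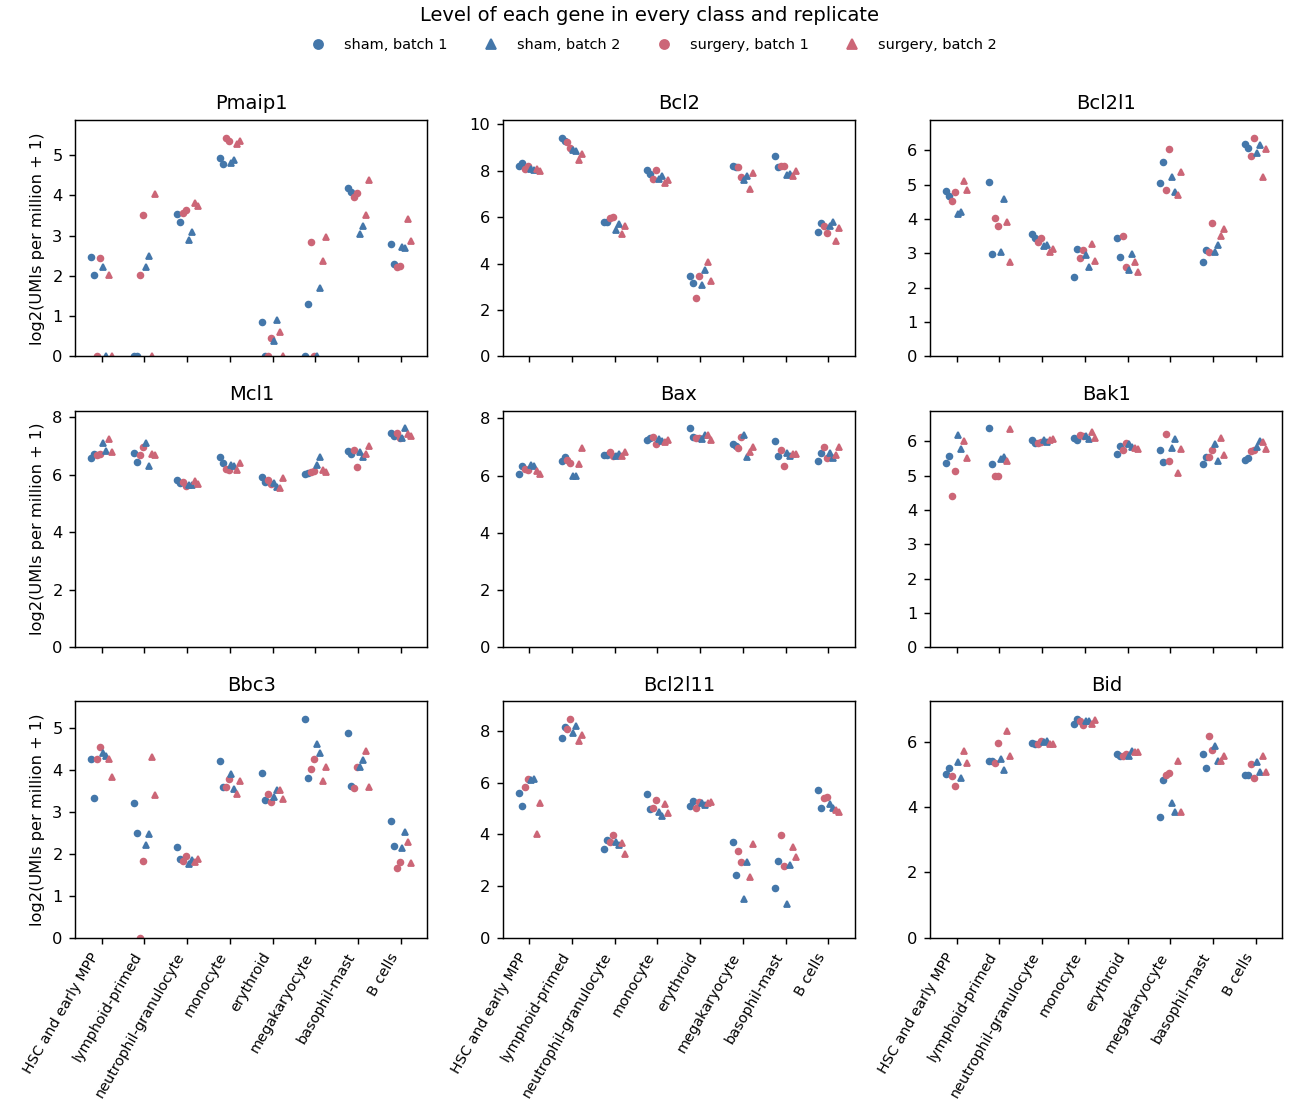
Level of each of the 9 genes as log2(CPM + 1) (y axes, each from 0) in every class (x axes) and replicate; circles are batch 1, triangles batch 2, blue is sham and red is surgery. Bcl2 and Bcl2l11 are highest in lymphoid-primed progenitors, Bcl2l1 and Mcl1 in B cells and Pmaip1 and Bid in monocyte progenitors. Bak1 varies least between class means, and Bax is lowest in HSC and early multipotent and highest in erythroid progenitors.

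The pore formers varied least. Bax ran from 73.7 ± 6.51 CPM in HSC and early multipotent progenitors to 166 ± 15.4 in erythroid progenitors (SD, n = 8), differences of -0.85 ± 0.08 and 0.74 ± 0.04 from the other classes (SE, adjusted p = 3.81e-15 and 4.76e-27). Bax was also higher in monocyte progenitors (151 ± 8.09 CPM, 0.58 ± 0.04) and lower in lymphoid-primed progenitors (87.3 ± 19.6 CPM, -0.51 ± 0.10), yet no pair of neighbours in its order passed. In neutrophil-granulocyte progenitors Bax did not pass (0.07 ± 0.04), and the sign turned without TMM scaling (-0.12). Bak1 was highest in monocyte (69.4 ± 3.70 CPM, 0.50 ± 0.06) and neutrophil-granulocyte progenitors (63.7 ± 2.27 CPM, 0.45 ± 0.05), adjusted p = 2.04e-13 and 4.64e-13. It exceeded erythroid progenitors, the next in order, by 0.19 in 8 of 8 replicates (exact permutation p = 0.00781, adjusted p = 0.0308). The calls of Bak1 in erythroid progenitors (0.18) and B cells (-0.16) ended without TMM scaling (0.05 and -0.04), and that in B cells also without batch 1 sham replicate 2, batch 2 sham replicate 1 or batch 2 surgery replicate 2 (-0.15 to -0.14).

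Of the other BH3-only genes, Bcl2l11 had the widest range. Lymphoid-primed progenitors had 197 to 354 CPM with a median of 258, 12.7-fold above the other classes (3.67 ± 0.11, SE, adjusted p = 7.63e-48). That was 2.49 above HSC and early multipotent progenitors, which had 49.5 ± 20.1 CPM, in 8 of 8 replicates (exact permutation p = 0.00781, adjusted p = 0.0308). Megakaryocyte (7.03 ± 3.60 CPM) and basophil-mast progenitors (6.97 ± 4.14 CPM) were at the foot, -2.46 ± 0.28 and -2.15 ± 0.23 from the rest. Monocyte progenitors exceeded neutrophil-granulocyte progenitors by 1.42 in 8 of 8 replicates, at 33.05 ± 6.86 against 11.6 ± 1.91 CPM. The lymphoid-primed cells that had the most Bcl2l11 were thus also those with the most Bcl2, and both genes were highest there in each batch.

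Bbc3 was the least counted member, with 2250 UMIs. It was higher in megakaryocyte progenitors (19.4 ± 7.75 CPM, 1.16 ± 0.19), basophil-mast progenitors (16.5 ± 6.01 CPM, 1.01 ± 0.17) and HSC and early multipotent progenitors (17.3 ± 4.21 CPM, 0.91 ± 0.18), with adjusted p between 1.26e-05 and 2.13e-07. It was lower in neutrophil-granulocyte progenitors (2.71 ± 0.335 CPM, -1.74 ± 0.12, adjusted p = 2.94e-23) and B cells (3.57 ± 1.27 CPM, -1.62 ± 0.17, adjusted p = 9.45e-14). No neighbours in its order passed. Bid followed the monocyte and neutrophil branch as Pmaip1 did, with 96.5 ± 4.68 CPM in monocyte (1.35 ± 0.05, adjusted p = 8.14e-40) and 61.6 ± 2.20 in neutrophil-granulocyte progenitors (0.69 ± 0.05, adjusted p = 2.29e-21). Monocyte over neutrophil-granulocyte progenitors (0.64) and neutrophil-granulocyte over erythroid progenitors (0.33) both held in 8 of 8 replicates (exact permutation p = 0.00781, adjusted p = 0.0308). Bid was lowest in megakaryocyte progenitors (23.4 ± 11.0 CPM, -1.21 ± 0.15). Its gene overlaps Bcl2l13 on the opposite strand (12136 UMIs), and no source used here states whether counting used the strand.

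By class, monocyte progenitors were higher for 7 and lower for 1 of the 9 members, where 35.6% and 36.7% of all genes were higher and lower. Their members were Pmaip1, Bid, Bcl2, Bbc3, Bax, Bak1 and Bcl2l11 on the higher side and Bcl2l1 on the lower side, with a median over the members of 0.58 against -0.03 over all genes. Neutrophil-granulocyte progenitors were higher for 3 (Pmaip1, Bid and Bak1) and lower for 5, with a median of -0.68 against -0.03 and a background of 37.7% and 39.7%. HSC and early multipotent progenitors were higher for 5 (Bcl2, Bbc3, Bcl2l11, Bcl2l1 and Mcl1) and lower for 4 (28.6% and 21.7% of all genes), and erythroid progenitors likewise for 5 and 4 (40.3% and 43.5%). Of these calls, Mcl1 in HSC and early multipotent progenitors was lost with no filter on low counts (0.17), with a lead of 3 markers (0.23) and in sham replicates alone (0.24). Bcl2l1 there was lost in sham replicates alone (0.43) and in thinned cells (0.31), and Bak1 with a lead of 3 markers (-0.37), in sham replicates alone (-0.21) and in thinned cells (-0.35). Bcl2l11 in monocyte progenitors was lost with a lead of 3 markers (0.18) and in thinned cells (0.30). In erythroid progenitors Bid (0.10), Bbc3 (0.19) and Bak1 (0.053) were lost without TMM scaling. B cells were higher for 3 and lower for 5 (38.8% and 35.5%), megakaryocyte progenitors for 4 and 4 (21.3% and 22.1%), basophil-mast progenitors for 4 and 2 (30.5% and 29.7%) and lymphoid-primed progenitors for 2 and 1 (25.8% and 21.5%). Without TMM scaling the median of all genes moved by -0.19 in neutrophil-granulocyte, -0.13 in erythroid and -0.11 in monocyte progenitors and by 0.16 in HSC and early multipotent progenitors, 0.12 in B cells, 0.12 in lymphoid-primed and 0.10 in megakaryocyte progenitors. Differences smaller than these shifts are read relative to them.

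Because Bcl2 and Bcl2l11 shared their peak in lymphoid-primed progenitors while Bcl2l1 peaked in B cells, the 250 bases before 1 annotated start of each are shown for comparison, read 5′ to 3′ on the gene's strand from RefSeq's GRCm38.p6. The windows are chr1:106714291-106714540 (minus strand) for Bcl2, chr2:128125788-128126037 (plus strand) for Bcl2l11 and chr2:152831729-152831978 (minus strand) for Bcl2l1, and all 3 lie outside the annotated gene. Capitals mark GC boxes, GGGCGG on either strand, the site of SP family factors.
Bcl2: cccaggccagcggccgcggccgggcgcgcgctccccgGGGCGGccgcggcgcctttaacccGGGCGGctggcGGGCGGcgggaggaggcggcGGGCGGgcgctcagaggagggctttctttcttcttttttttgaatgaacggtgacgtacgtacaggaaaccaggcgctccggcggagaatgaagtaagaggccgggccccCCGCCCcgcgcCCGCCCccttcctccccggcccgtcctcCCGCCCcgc
Bcl2l11: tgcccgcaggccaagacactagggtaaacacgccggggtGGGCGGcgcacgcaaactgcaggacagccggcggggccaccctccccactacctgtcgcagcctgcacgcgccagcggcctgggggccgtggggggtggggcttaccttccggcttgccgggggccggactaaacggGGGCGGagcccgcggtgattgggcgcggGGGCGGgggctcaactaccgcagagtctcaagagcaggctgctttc
Bcl2l1: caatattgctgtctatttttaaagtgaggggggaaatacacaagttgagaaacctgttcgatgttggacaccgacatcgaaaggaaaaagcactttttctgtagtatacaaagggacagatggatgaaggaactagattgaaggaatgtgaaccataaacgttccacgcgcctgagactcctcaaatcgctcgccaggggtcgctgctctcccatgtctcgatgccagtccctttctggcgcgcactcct

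The Bcl2 window held 7 GC boxes and 74.8% G and C, that of Bcl2l11 held 3 and 72.0%, and that of Bcl2l1 none and 47.6%. Of all 32851 promoter windows of this length, 32.7% held at least 1 GC box. GC boxes also lay in windows of members highest in other classes: Bbc3 (5, 1 and 7), Bid (3), Bax (2) and Mcl1 (1). Mcl1 shared its peak in B cells with Bcl2l1, and the Bak1 window held no GC box. Whether GC boxes go with the class of the peak was not tested. None of the 3 windows shown held the letters AGATAA (the GATA motif, in 9.99% of windows), CAGCTG (an E-box, in 4271 of the 32851), GAGGAAGT (PU.1, 2.44%), TGACGTCA (the cAMP response element, 1.55%) or TGATGNAA (a composite of C/EBP and ATF, 3.45%), searched on both strands. The GC box was added to the search after the other motifs had been looked for. Windows were found for 8 of the 9 members, 13 in all. Bcl2l11 had 2 windows and Bcl2l1 had 3, of which 1 each is shown. Another Bcl2l1 window, chr2:152828490-152828739, held AGATAA 41 bases before its start, and none of the 3 held a GC box.

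On GRCm38, with the gene spans of GENCODE mouse release 21, the members lay on 7 chromosomes. Pmaip1 spans 66458533 to 66465565 on chromosome 18 (plus strand), Mcl1 95658788 to 95663176 on chromosome 3 (plus) and Bid 120891930 to 120916853 on chromosome 6 (minus). Bcl2 spans 106538178 to 106714274 on chromosome 1 (minus), and an antisense gene within it, D630008O14Rik, had 54 UMIs. On chromosome 2 lie Bcl2l1 at 152780668 to 152831728 (minus) and Bcl2l11 at 128126038 to 128162547 (plus). On chromosome 7 lie Bax at 45461697 to 45466898 (minus) and Bbc3 at 16308393 to 16318205 (plus). Bak1, at 27019810 to 27029009 on chromosome 17 (minus), overlaps Ggnbp1 on the plus strand, which had 1445 UMIs.

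The wider death and survival machinery was read through 6 further lists. After surgery, none of their genes passed the threshold in all cells or in any class. That covers 14 of 16 other BCL2 family genes tested over all cells, 20 of 20 genes of caspases, apoptosome and inhibitors, 21 of 21 of p53 and its targets, 12 of 12 of the integrated stress response, 8 of 8 of MCL1 and NOXA protein turnover and 11 of 11 of other death and survival receptors, with list medians of 0.03, -0.01, -0.00379, -0.04, -0.03 and 0.06 on the log2 scale. From the integrated stress response, 2 genes are given here that were chosen after their values were seen. Over all cells Atf4, its transcription factor, differed by 0.01 ± 0.06 and Ddit3 by -0.08 ± 0.06. These are RNA levels, and whether either gene acts on Pmaip1 here was not tested. Monocyte progenitors tested 16 of 21 p53 genes and 9 of 12 stress response genes, with medians of 0.03 and 0.01.

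Between classes these lists differed more. All 7 tested genes of MCL1 and NOXA protein turnover were lower in neutrophil-granulocyte and in monocyte progenitors, with medians of -0.48 and -0.35, where 39.7% and 36.7% of all genes were lower. The list holds ubiquitin ligases and deubiquitinases that act on these proteins. All 7 were lower in both classes also without TMM scaling and in DESeq2, and 7 and 5 in thinned cells. The largest differences of the list were Trim17 (-1.36 ± 0.12) and Marchf5 (1.19 ± 0.05) in erythroid progenitors and Fbxw7 (1.13 ± 0.05) and Btrc (0.80 ± 0.07) in B cells. Of 11 other death and survival receptors and adaptors, all 11 were higher in neutrophil-granulocyte progenitors (10 without TMM scaling), where 37.7% of all genes were higher. In monocyte progenitors 8 were higher and 1 lower (35.6% and 36.7% of all genes). In erythroid progenitors 8 were lower (10 without TMM scaling) and 0 higher, at a median of -1.71, where 43.5% of all genes were lower. Csf2rb, the shared beta chain of the IL-3 and GM-CSF receptors, stood 4.59 ± 0.07 higher in basophil-mast progenitors, and Il3ra (-3.64 ± 0.16), Tnfrsf1a (-3.24 ± 0.16) and Tnfrsf1b (-3.03 ± 0.15) were lower in erythroid progenitors.

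Other BCL2 family genes were mostly sparse, and 9 of 16 were tested between classes. Bok, a pore former of its own kind, was 4.81 ± 0.20 higher in B cells (20.4 ± 3.74 CPM), and Bcl2l15 (4.69 ± 0.22) and Bcl2l13 (1.49 ± 0.05) were higher in erythroid progenitors. Over all cells Bok had 1.59 and Bcl2l15 1.77 CPM. The low-count filter works by class and admits a gene that is high enough in 1 class. For such sparse genes a higher value in that class was thus partly set by the filter. Bmf, a BH3-only gene, had no UMI in megakaryocyte progenitors, at least 5.57-fold lower than the mean of the other classes when 3 UMIs over the class are taken as the limit. That mean, 4.72 CPM, includes B cells at 22.8 ± 4.99 CPM. Neutrophil-granulocyte progenitors, with 0.891 ± 0.371 CPM, lay close to the limit of 0.847 CPM, so the fold is not a trait of megakaryocyte progenitors alone. Of 20 genes of caspases, apoptosome and inhibitors, 12 were higher and 7 lower in erythroid progenitors, with a median of 0.73 (0.61 without TMM scaling), where 40.3% and 43.5% of all genes were. Htra2 (1.86 ± 0.05) and Casp6 (1.65 ± 0.08) were higher and Birc3 (-1.75 ± 0.09) lower in these cells.

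Of 16 tested genes of the p53 list, 10 were lower and 1 higher in monocyte progenitors. There 36.7% of all genes were lower and 35.6% higher, and the list median was -0.27. The counts there were 12 lower and 1 higher without TMM scaling, 9 and 3 of 21 with no filter on low counts, and 4 and 1 of 12 in thinned cells. The list leaves out the 9 members, of which 7 were higher and 1 lower in this class, with Bbc3 (0.67 ± 0.10) among the higher. The activity of p53 was not tested. In neutrophil-granulocyte progenitors 9 were lower and 3 higher (39.7% and 37.7% of all genes). The counts were 9 and 5 in erythroid (43.5% and 40.3%) and 6 and 1 in megakaryocyte progenitors (22.1% and 21.3%). In HSC and early multipotent progenitors 1 was lower and 6 higher (21.7% and 28.6%). Lymphoid-primed progenitors had 1 and 6 (21.5% and 25.8%) and basophil-mast progenitors 4 and 5 (29.7% and 30.5%). In B cells 10 were higher and 4 lower (median 0.45), against 38.8% and 35.5% of all genes. Plk2 (4.80 ± 0.23) was higher in lymphoid-primed progenitors, Perp (4.58 ± 0.28) in basophil-mast progenitors and Trp53inp1 (4.01 ± 0.08) in B cells, and Cdkn1a, the p21 cell cycle inhibitor, was lower in erythroid progenitors (-3.98 ± 0.21). Of 9 tested genes of the integrated stress response, 2 were higher and 4 lower in monocyte progenitors, with Atf3 (1.98 ± 0.14) on the higher and Ddit4 (-2.02 ± 0.12) on the lower side. Asns, asparagine synthetase, was 4.37 ± 0.08 higher in erythroid progenitors and Vldlr 5.19 ± 0.34 higher in HSC and early multipotent progenitors. The single-gene values between classes from these lists are log2 differences ± SE from edgeR, each with an adjusted p under 0.05 over all genes. For any of these genes that is sparse outside its highest class, the limit of the low-count filter given with Bok holds too.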

How the data were processed

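Single-cell RNA was captured with PIPseq in 2 captures with hashtag counts. The deposited matrices hold UMI counts per gene and barcode, made by the authors with Cell Ranger on GRCm38, per the submitters' processing notes; no version is given in the sources used here.

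Barcodes with at least 500 genes, 1000 UMIs and at most 10% mitochondrial UMIs were kept, and those with exactly 1 hashtag at or above 200 counts were used, 26942 of 32273. Barcodes with several hashtags (3.53% and 2.37% of those kept in the batches) were removed; doublets within a hashtag stay, and no doublet caller was run. Groups came from hashtag names. Raw UMIs were summed per replicate and class (19521590 to 51862441 UMIs per replicate).

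edgeR 4.0.16 (R 4.3.3) was used with filterByExpr, TMM and quasi-likelihood tests: surgery against sham with batch as a term, and class against the mean of the other classes with replicate as a block, Benjamini-Hochberg adjusted at 0.05. Scripts were tested on simulated data. Neighbouring classes were compared by exact sign-flip permutation on log2(CPM + 1), without TMM factors (scipy 1.17.1). Alternatives included DESeq2 1.42.0, filters, gates and left-out replicates. All 9 members are named, and from each further list at most 4 genes by size of difference among those called. One gene that this rule names is not reported here. The members, lists, markers and tests were chosen with earlier results of these data known. Gene spans come from GENCODE (32098 of 32227 identifiers found).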

Additional observations from a re-analysis of the deposited data

Results flagged for a closer look

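In 5 of 130 groups of 4 replicates, 1 replicate lay far from the other 3, by a measure that chance alone meets in about 1 in 20 groups. Mcl1 was 152 CPM in HSC and early multipotent progenitors of batch 2 surgery replicate 1, against 103 to 109 in the other surgery replicates. In lymphoid-primed progenitors Mcl1 was 124 CPM in batch 1 surgery replicate 2, against 101 to 103. Batch 1 sham replicate 1 gave the other 3 values. Its Bax level was 65.5 CPM in HSC and early multipotent progenitors, against 80.2 to 81.4 in the other sham replicates, and 148 CPM in basophil-mast progenitors, against 102 to 109. Its Bak1 level in lymphoid-primed progenitors, which were 20 cells in that replicate, was 82.4 CPM against 39.2 to 46.0.

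Cells that passed no gate (8694, 32.3% of those used) stand outside the class comparisons but inside the all-cell sums on which Pmaip1 was chosen. These cells held 37.3% of its UMIs, and their Pmaip1 levels are given as a description only. Their sham replicates had 16.4 and 21.15 CPM in batch 1 and 18.7 and 15.2 in batch 2, and their surgery replicates 24.9 and 22.8 in batch 1 and 24.6 and 22.0 in batch 2. The means were 17.9 ± 2.63 and 23.6 ± 1.39 CPM (SD, n = 4 each), and the groups did not overlap. The share of all genes without overlap was not counted in cells in no gate, whole or split, so nothing is read from this. Split after the data were seen, the 3018 of these cells with at least 3 markers of both monocyte and neutrophil-granulocyte progenitors had 23.7 ± 3.25 CPM in sham and 30.05 ± 1.14 in surgery replicates, with no overlap. The other 5676 had 9.995 ± 2.44 and 14.5 ± 3.87 CPM, with overlap.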

How the results depend on the processing

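The surgery difference of Pmaip1 over all cells kept its size but not its place past the threshold: 0.47 with a replicate block, 0.47 with no batch term and 0.45 to 0.48 without any 1 replicate, and 0 members were then called. In monocyte progenitors it was 0.52 to 0.57 without 1 replicate, and 0 to 1 members were called in the classes, against 2 with no filter on low counts. Same-numbered sham and surgery samples deviated with correlations of 0.006 and 0.0016 in the batches. With 2 replicates per group in a batch, their deviations mirror each other and give 1 value per batch. That cannot show whether the numbers pair samples, and the main fit used no pairing. With cells thinned to 2000 UMIs, 64 of the 72 class differences were tested (Bbc3 fell under the filter), 21 were higher instead of 33, 13 calls were lost, and 0 of 63 neighbour pairs passed, as without any 1 replicate (0), where the exact test cannot pass; the neighbour alternatives were chosen after seeing the data.

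Signs turned for 9 pairs of gene and class, of which Bcl2l11 in B cells had been called (-0.13 with a lead of 3 markers). In lymphoid-primed progenitors these were Mcl1 (-0.048 thinned), Bid (0.068 without TMM scaling, 0.16 thinned, -0.15 to 0.0012 without 1 replicate) and Pmaip1 (-0.88 in sham replicates only, -0.43 to 0.39 without 1 replicate). The others were Bax in neutrophil-granulocyte (-0.12 without TMM scaling), Mcl1 in monocyte (0.081 with no filter, 0.043 in sham replicates only), Bak1 in megakaryocyte (0.12 thinned) and Bax in basophil-mast progenitors (0.0052 in DESeq2, 0.035 in sham replicates only, -0.087 to 0.0045 without 1 replicate), and Pmaip1 in B cells (-0.37 with a lead of 3 markers, -0.058 to 0.16 without 1 replicate). The causes were not tested. Of the single class values, 1341 kept direction and call, 48 lost and 16 gained a call. A lead of 3 markers left too few megakaryocyte progenitors to test. In HSC and early multipotent, lymphoid-primed and megakaryocyte progenitors Pmaip1 rests on 8 to 16 UMIs.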
